A study of Oryza sativa Indica Group with 4 samples.

Results

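In leaf blades of rice seedlings, 78 loci had lower read counts in the mutant togr1-1 than in the wild type at both growth temperatures. They were chosen on these reads: the counts of the transcript models of a locus were summed, 1 read was added, each library was scaled by its total, and a locus was kept when togr1-1 had at most 0.5 of the wild-type value at 25 °C and again at 30 °C, with at least 50 reads over the 2 libraries of each temperature. Of 28458 loci with a read, 15261 met the minimum of reads, and the 78 members make up 0.511% of those. At 25 °C alone 4.51% of the 15261 loci were at or under the ratio of 0.5 and at 30 °C alone 3.22%, and the members were 11.3% of the first list and 15.9% of the second. These shares follow from the rule and are given as a description.

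The wild type is the indica variety Zhongxian 3037. togr1-1, labelled tog1 in the records, is a spontaneous recessive mutant isolated from that variety with an amino acid substitution in TOGR1 (LOC_Os03g46610). Seedlings of both genotypes were 4 days old when they were divided between chambers at 25 °C and 30 °C (12 h light and 12 h dark, 80% humidity), and the fourth leaf blades were pooled into 100 mg of tissue after a further 18 days, at 22 days of age. Poly(A) RNA of each pool was sequenced on an Illumina HiSeq instrument, giving 4 libraries, 1 per genotype and temperature. There were therefore no replicates, no difference below has a replicate check, and a difference between the libraries of the genotypes cannot be told apart from a difference between pools or from other differences between the 2 lines. In a pooled leaf, fewer cells of a type and less RNA per cell cannot be told apart either.

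TOGR1 is a DEAD-box RNA helicase of the nucleolus. DEAD-box proteins use ATP to open short RNA duplexes, and several of them act in the nucleolus on the precursor of the ribosomal RNAs, where folding of the precursor and its cleavage are coupled. Folding of RNA depends on temperature, and growth of a leaf depends on the supply of ribosomes. TOGR1 itself was not a member. It had 175 (25 °C) and 180 (30 °C) wild-type reads against 127 and 156 mutant reads, ratios of 0.718 (95% interval 0.510 to 1.001) and 0.855 (0.622 to 1.17), and since togr1-1 carries a substitution these reads do not check the labels. The homologues of APX2 (an ascorbate peroxidase) and GolS2 (a galactinol synthase) that the study names were not members either, with ratios of 1.30 and 0.813 for LOC_Os07g49400, 1.60 and 1.80 for LOC_Os03g20120, and 1.07 and 0.540 for LOC_Os07g48830. The files give locus identifiers without gene names, and 0 of the 28458 loci matched the RefSeq table of assembly ASM3414082v1. The members are therefore described by their reads, their response to temperature and their place on the chromosomes, no role is given to any of them, and the leaf label was not checked against marker genes.

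Between 11959859 and 12371522 reads were counted per library. Models with few reads had even counts more often than odd ones (59.6% to 61.3% of the models with 1 to 50 reads in each library), and in the cooler wild-type library 2740 models had 2 reads against 1597 with 1 read. Whether both reads of a fragment were counted is not stated in the sources used here. The 95% Clopper-Pearson intervals given here, of the ratio of reads of a pair of libraries, therefore treat 2 reads as 1 fragment, and they cover counting error only.

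The size of the deficit ranged widely. The median member had 0.333 of the wild-type reads at 25 °C and 0.346 at 30 °C (log2 ratios of -1.59 and -1.53), while the median over the 15261 loci was a log2 ratio of -0.04 and -0.10. Both ratios were at most 0.25 in 16 members and at most 0.1 in 8. The upper end of the counting interval lay below 1 at both temperatures in all 78 members and at or below 0.5 at both temperatures in 28. These intervals are of the ratios that chose the members, so the counts are set largely by the rule and are a description. The scatter of togr1-1 against wild-type reads shows that most members lie along the lower edge of the cloud of loci and a small number far below it.

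**Figure D1:**
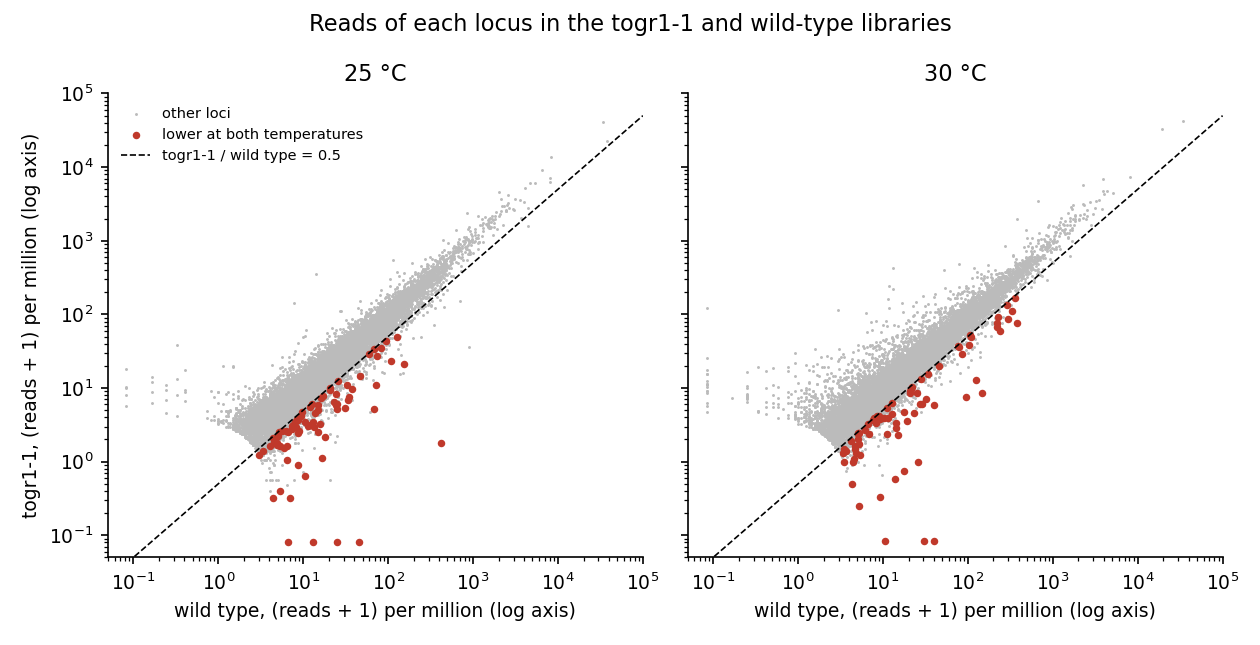
Each point is 1 of the 15261 loci, with reads plus 1, scaled by the library total, for the wild type on the x axis and in togr1-1 on the y axis (log axes), at 25 °C on the left and 30 °C on the right. The 78 members (red) lie on or under the dashed line of a ratio of 0.5 in both panels, and the points at the bottom are loci with 0 reads in togr1-1.

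Levels per length in the wild type were near those of all loci at 25 °C and somewhat lower at 30 °C. The minimum of 50 reads counted the wild-type and togr1-1 libraries of a temperature together. Members are low in togr1-1 by the rule, so they reached it mostly through the wild type, which sets a floor under these levels. Over the togr1-1 libraries of both temperatures 22 members had fewer than 50 reads. The median member had 10.2 RPKM (reads scaled by transcript length and library size, summed over the models of a locus) in the cooler wild-type library and 8.4 RPKM in the warmer one, where the median over all 15261 loci was 10.7 and 11.4 RPKM. In togr1-1 the median member had 2.35 RPKM at 25 °C and 2.47 at 30 °C. Over both wild-type libraries the members had from 96 to 5392 reads with a median of 367.5, against 468 over all loci. Of the members 25 rest on fewer than 200 wild-type reads and 22 on at least 1000. Together they took 0.225% (25 °C) and 0.432% (30 °C) of the wild-type reads, against 0.0533% and 0.137% of the togr1-1 reads.

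At 3 members no read was counted in either togr1-1 library, and all 3 lie on chromosome 4. LOC_Os04g30160 had 550 wild-type reads at the cooler and 479 at the warmer temperature, and 0 and 0 in togr1-1. A count of 0 was taken to allow at most 3 fragments (6 reads) per library, with the wild-type count taken as exact. On these terms LOC_Os04g30160 was 92.8-fold lower at 25 °C and 81.0-fold lower at 30 °C. Its counting intervals, which also cover error in the wild-type count, ended at ratios of 0.0133 and 0.0153, a smaller deficit. LOC_Os04g23040 had 305 and 359 reads in the wild type and 0 and 0 in togr1-1, 51.5-fold and 60.7-fold lower on the same terms. Its intervals ended at ratios of 0.0242 and 0.0205. These loci stood at 17.0 and 21.8 RPKM in the wild type at 25 °C, above the median locus, and were not detectable in togr1-1 at this depth.

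LOC_Os04g15550, the third of them, had 79 and 124 reads in the wild type, 13.3-fold and 21.0-fold more than in togr1-1 on the same terms. Its intervals ended at ratios of 0.0967 and 0.0604. Its wild-type reads were divided among 4 transcript models, with 50 and 55 of them on one model, and each of the 4 had 0 reads in togr1-1. LOC_Os05g24580 (84 and 61 wild-type reads against 3 and 2) and LOC_Os10g02070 (53 and 110 reads against 3 and 3) were the other members with at most 3 reads in each togr1-1 library. For these 5 members both togr1-1 libraries lay far below both wild-type libraries, and the deficits of the last 2 rest on few reads.

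LOC_Os02g30910 behaved otherwise. Its wild-type reads were 5080 in the cooler library, the most of any member in a single library, and 312 in the warmer one, and togr1-1 had 21 and 11. The ratio of togr1-1 to wild type was 0.00428 at 25 °C (95% interval 0.00200 to 0.00741) and 0.0378 at 30 °C (0.0119 to 0.0798), so the deficit was 234-fold in the cooler and 26.5-fold in the warmer pair. Only the wild-type library at 25 °C was high, at 266 RPKM, and the other 3 libraries had from 0.579 to 16.7 RPKM.

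Further members with at least 200 reads and a low mean ratio were LOC_Os04g30260, LOC_Os04g10650 and LOC_Os04g29680. LOC_Os04g30260 had 159 and 167 reads in the wild type and 0 and 6 in togr1-1. LOC_Os04g10650 had 202 and 209 reads against 13 and 8, ratios of 0.0681 (0.0239 to 0.139) and 0.0422 (0.0101 to 0.0995). LOC_Os04g29680, the most abundant of the 3, had 1869 and 1754 reads in the wild type and 260 and 102 in togr1-1, a deficit of 7.25-fold at 25 °C and 17.3-fold at 30 °C. In each of these loci the wild-type reads hardly differed between the temperatures.

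LOC_Os10g02880 had 412 and 1126 reads in the wild type and 84 and 92 in togr1-1, LOC_Os04g38680 had 833 and 386 against 63 and 86, and LOC_Os10g22050 had 108 and 1500 against 31 and 157. They complete the 10 lowest mean log2 ratios among members with at least 200 reads over the 4 libraries. In LOC_Os10g02880 and LOC_Os10g22050 the deficit was larger at 30 °C, at 12.3-fold and 9.64-fold, than at 25 °C, at 4.92-fold and 3.45-fold. In LOC_Os04g38680 it was larger at 25 °C (13.2-fold) than at 30 °C (4.51-fold).

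At the other end, the members closest to the limit were LOC_Os08g02110 (832 and 1278 reads in the wild type, 420 and 638 in togr1-1, ratios of 0.499 and 0.492), LOC_Os05g03920 (0.494 and 0.479) and LOC_Os01g66544 (0.490 and 0.468). The loci just outside it were LOC_Os12g40780, with a ratio of 0.501 at 25 °C and one less than 0.001 above the limit at 30 °C, LOC_Os02g56200 (0.378 and 0.503) and LOC_Os01g03870 (0.503 and 0.335). The values on either side of the limit are nearly equal, and the limit does not mark a gap.

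**Figure D2:**
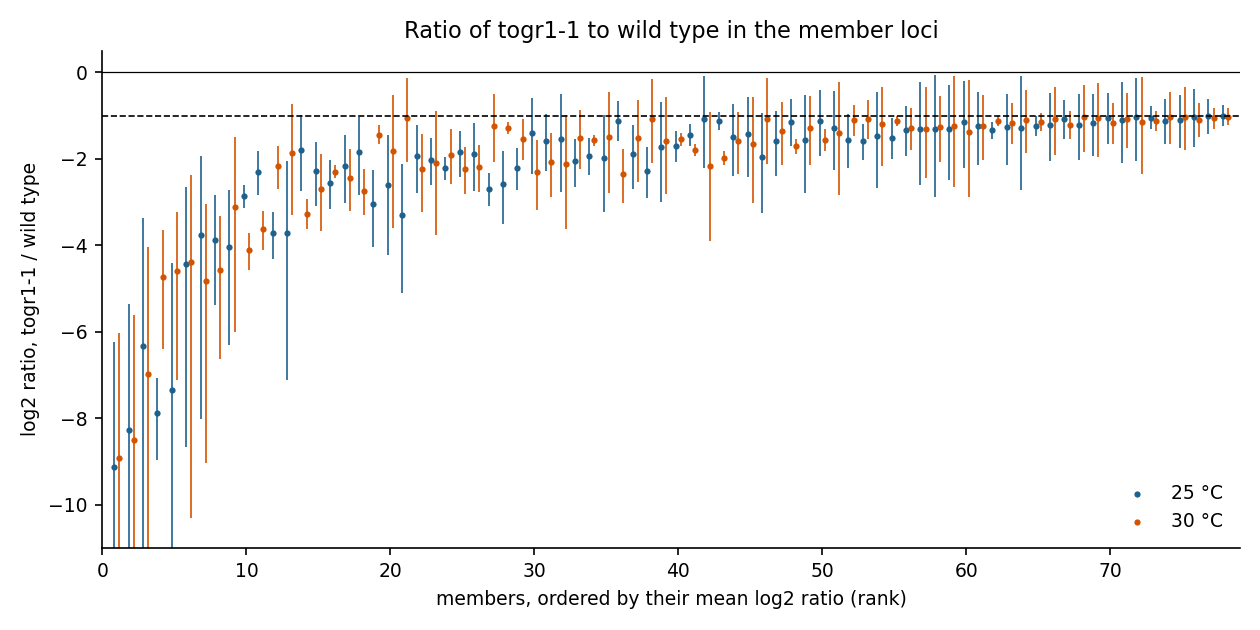
The log2 ratio of togr1-1 to wild type at 25 °C (blue) and 30 °C (orange) is plotted for the 78 members in the order of their mean log2 ratio, with 95% Clopper-Pearson intervals for counting error (vertical lines, ending at the lower axis where togr1-1 had 0 reads). The dashed line is the ratio of 0.5 used to choose the members. The intervals of all 78 end below 0, the line of equal reads, which is set largely by the rule.

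The deficits at the temperatures were of like size in most members. The log2 ratios at 25 and 30 °C differed by at most 0.5 in 50 of the 78, the ratio was higher at 30 °C in 44 and lower in 34, and the median difference was 0.05. The deficit was at least 2-fold smaller at 30 °C in 9 members and at least 2-fold larger in 6. The rule cut both ratios at 0.5, which favours ratios of like size. The shares over all loci were not calculated, so these counts are a description. Both togr1-1 libraries lay below both wild-type libraries in 58 members. In the remaining 20 the libraries of the genotypes overlapped across temperatures, so that a togr1-1 library at one temperature had as many scaled reads as a wild-type library at the other, or more. All of these 20 changed at least 2-fold with temperature in the same direction in both genotypes. Of all loci with the minimum of reads 18.6% had both togr1-1 libraries below both wild-type libraries, and for the members this count is set largely by the rule.

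The response of the members to temperature within each genotype was not used by the rule, although it is calculated from the same 4 libraries. A locus was counted as changed when its scaled reads differed at least 2-fold between 30 and 25 °C with at least 50 reads over the pair. In the wild type, 24 of the 78 members (30.8%) were at least 2-fold higher at 30 °C, where 6.19% of 15085 loci were, and 7 (8.97%) were at least 2-fold lower, where 5.97% of loci were. In togr1-1 only 56 members had the 50 reads, and 19 of those (33.9%) were higher at 30 °C, against 6.50% of 15146 loci, and 6 (10.7%) were lower, against 3.70%. The share of members higher at 30 °C was therefore well above that of all loci in both genotypes, and the share that were lower was nearer to it. The log2 ratio of 30 over 25 °C had a median of 0.21 over the 78 members in wild-type and 0.46 over the 56 in togr1-1 libraries, against 0.09 and 0.06 over all loci. Over the same 56 members it was 0.51 in the wild type.

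The members that were higher at 30 °C were largely shared between the genotypes. All 19 members that were higher at 30 °C in togr1-1 were also higher in the wild type. Over all loci 984 were higher in togr1-1 and 331 in both genotypes. Of the 56 members 33.9% were thus higher in both, against 2.21% of 14970 loci, and 4 (7.14%) were lower in both, against 1.30%. The ratio of the 2 temperature ratios of a locus equals that of its 2 genotype ratios, so this sharing is not independent of the rule. Of the 56 members, 26 changed by less than 2-fold in either genotype. Among the 124 loci that were at least 2-fold higher in togr1-1 at both temperatures (0.813% of the 15261), 54 had the minimum of reads in the wild type, and 5 of these (9.26%) were higher and 13 (24.1%) lower at 30 °C there. In togr1-1 all 124 loci had the minimum of reads, and 15 (12.1%) were higher and 6 (4.84%) lower. Over all loci 6.19% were higher and 5.97% lower in the wild type, and 6.50% and 3.70% in togr1-1. The 2 splits are over different sets of loci and were not compared. Of the 22 members with too few reads in togr1-1, 1 was at least 2-fold higher and 2 were at least 2-fold lower at 30 °C in the wild type. The wild-type libraries are shared between the genotype and the temperature comparisons, and no test of a difference between these shares was made.

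**Figure D3:**
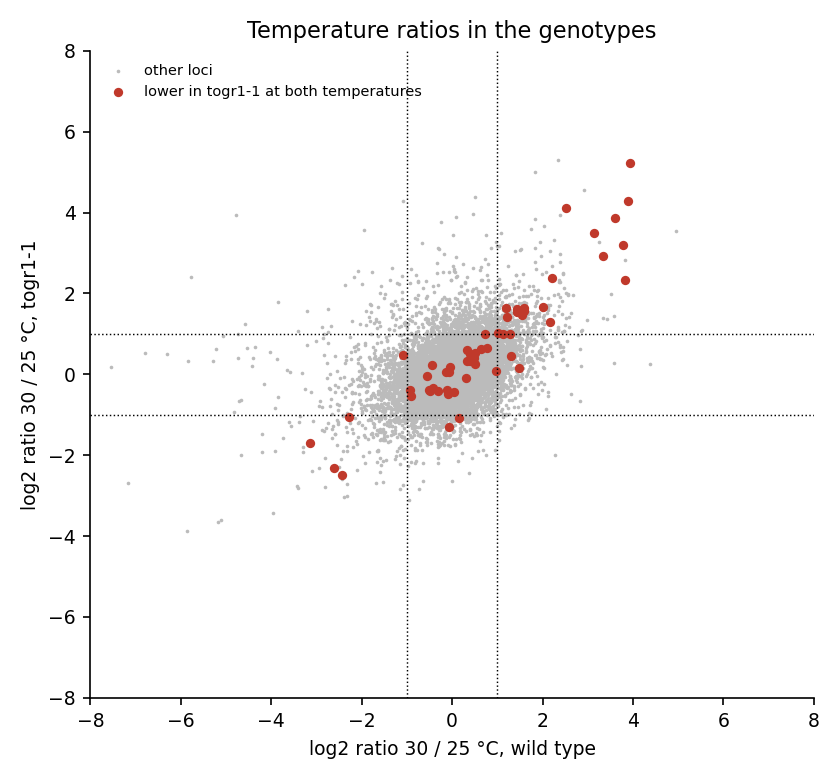
The log2 ratio of 30 over 25 °C in the wild type (x axis) is plotted against that in togr1-1 (y axis) for the 14970 loci with at least 50 reads in each genotype, with dotted lines at a 2-fold difference. Of the 56 members shown in red, 19 lie beyond the lines in the upper right corner, of which 7 were at least 8-fold higher in the wild type, and 4 lie in the lower left corner.

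Rises of at least 8-fold were few and often among the members. At least 8-fold higher reads at 30 °C were found in the wild type for 7 of the 78 members (8.97%) and for 16 of 15085 loci (0.106%), so that the members made up 7 of those 16 loci. In togr1-1 the numbers were 6 of 56 members (10.7%) and 39 of 15146 loci (0.257%). This threshold was chosen after the values had been seen.

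LOC_Os04g49370 had 182 wild-type reads at 25 °C and 2734 at 30 °C, against 30 and 1134 mutant reads. It rose 15.3-fold (95% interval 12.4 to 19.2) in the wild type and 37.3-fold (23.2 to 69.3) in togr1-1. LOC_Os09g35030 had 293 and 4286 wild-type reads against 103 and 1996, with temperature ratios of 14.9 (12.6 to 17.8) and 19.6 (14.9 to 26.7). In both loci the warmer togr1-1 library lay above the cooler wild-type library, so that the libraries of the genotypes overlapped. The same held for the rest of the 19 members higher at 30 °C in both genotypes, with 2 exceptions. These were LOC_Os03g03810 (71 togr1-1 reads at 30 °C against 106 wild-type reads at 25 °C) and LOC_Os06g30179 (63 against 67).

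LOC_Os05g28740 had 381 and 4542 reads in the wild type, the latter equal to 424 RPKM and the highest level of any member, and 65 and 937 in togr1-1. Its temperature ratios were 12.1 (10.5 to 14.2) in the wild type and 14.5 (10.3 to 21.7) in togr1-1, and togr1-1 had 0.171 of the wild-type reads at 25 °C and 0.203 at 30 °C. LOC_Os05g27780 had 456 and 3930 reads against 120 and 1345, with temperature ratios of 8.79 and 11.3. In these loci the intervals of the temperature ratio overlapped between the genotypes, and togr1-1 was lower at each temperature by a like factor.

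LOC_Os10g22050 had 108 and 1500 reads in the wild type but 31 and 157 in togr1-1, a rise of 14.1-fold (10.8 to 19.1) against 5.03-fold (2.97 to 9.56). LOC_Os08g43550 had 195 and 2632 reads against 89 and 814, and LOC_Os05g06780 had 101 and 1008 against 46 and 347. Their rises were 13.7-fold and 10.1-fold in the wild type and 9.23-fold and 7.55-fold in togr1-1. LOC_Os02g43330 went the other way, with 219 and 1226 reads in the wild type and 26 and 458 in togr1-1, a rise of 5.70-fold (4.66 to 7.07) against 17.3-fold (10.3 to 34.2).

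Among the more abundant members with smaller rises, LOC_Os03g60580 had 896 and 3555 reads in the wild type and 333 and 1035 in togr1-1, LOC_Os06g07030 had 576 and 2625 against 178 and 912, and LOC_Os12g03040 had 1541 and 3482 against 616 and 1621. Their temperature ratios were 4.05, 4.65 and 2.31 in the wild type and 3.16, 5.2 and 2.68 in togr1-1. The other 8 members that were higher at 30 °C in both genotypes (LOC_Os01g08780, LOC_Os01g66544, LOC_Os02g50350, LOC_Os03g03810, LOC_Os05g03480, LOC_Os05g03920, LOC_Os06g24990 and LOC_Os06g30179) had ratios between 2.01 and 4.51 in the wild type and between 2.04 and 3.14 in togr1-1. Over the 19 the median temperature ratio was 4.51 for wild-type and 3.16 for togr1-1 libraries.

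LOC_Os11g41600, with 1165 and 2823 reads in the wild type and 544 and 725 in togr1-1, and LOC_Os10g02880 were at least 2-fold higher at 30 °C in the wild type and under 2-fold in togr1-1, at 2.47 against 1.36 and 2.79 against 1.12. LOC_Os01g50370 and LOC_Os02g54254 also crossed the limit in the wild type alone, but by 2.19 against 1.99 and 2.43 against 1.98, with intervals that overlap.

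The 4 members lower at 30 °C in both genotypes were LOC_Os01g06310, LOC_Os01g16450, LOC_Os01g61380 and LOC_Os10g42610. LOC_Os01g06310 had 1318 wild-type reads at 25 °C and 209 at 30 °C, against 287 and 56, with temperature ratios of 0.163 (0.130 to 0.199) and 0.202 (0.128 to 0.300). LOC_Os01g16450 fell from 302 to 54 reads in the wild type and from 74 to 12 in togr1-1. LOC_Os10g42610 fell from 881 to 97 reads and from 137 to 41, and LOC_Os01g61380 from 305 to 61 and from 63 to 29. In 3 of the 4 the togr1-1 library at 25 °C lay above the wild-type library at 30 °C in scaled reads, so that the libraries of the genotypes overlapped. In LOC_Os01g61380 these libraries were nearly equal and both togr1-1 libraries lay below both wild-type libraries.

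LOC_Os04g29680 and LOC_Os04g17700 were lower at 30 °C in togr1-1 alone. The former changed from 260 to 102 reads in togr1-1, a ratio of 0.402 (0.283 to 0.557), and from 1869 to 1754 in the wild type, a ratio of 0.959 (0.873 to 1.05). LOC_Os04g17700 changed from 117 to 54 reads in togr1-1 and from 252 to 276 in the wild type, ratios of 0.475 (0.287 to 0.754) and 1.12 (0.872 to 1.44). For these loci the deficit of togr1-1 was larger in the warmer pair, at 17.3-fold and 5.11-fold, than in the cooler pair, at 7.25-fold and 2.17-fold.

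The members were not spread evenly over the genome. A locus identifier holds the chromosome and a number that rises along it, and by these 11 of the 12 chromosomes held members. Chromosome 4 had 16 members among 1331 loci with the minimum of reads (1.20%) and chromosome 1 had 19 among 2258 (0.841%), while chromosome 7 had 0 among 1169 and chromosome 12 had 1 among 801 (0.125%). For loci higher in togr1-1 at both temperatures chromosome 4 also had the highest share, 23 of 1331 (1.73%), and chromosome 7, which had no member, had 15 (1.28%).

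**Figure D4:**
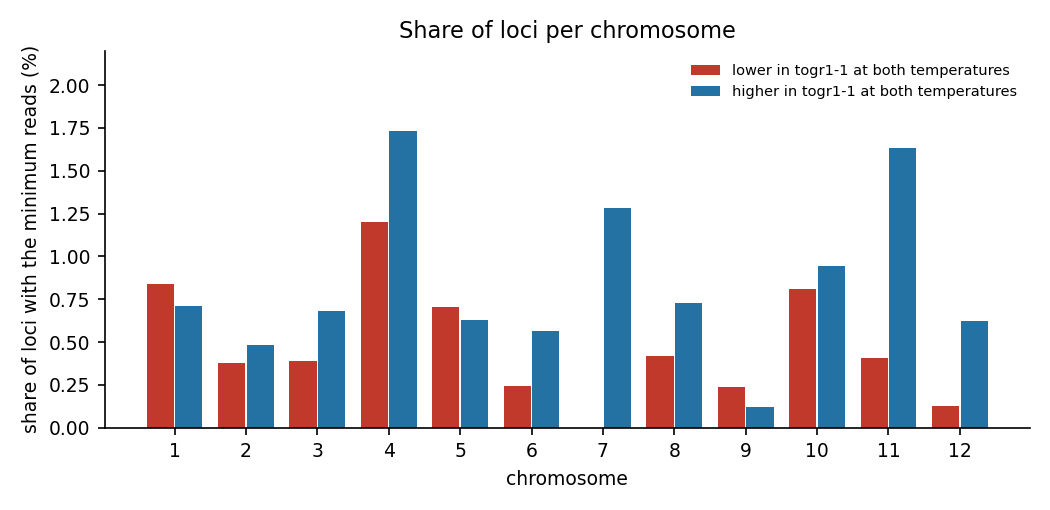
Bars give, for each chromosome, the share of loci with the minimum of reads that were lower (red) or higher (blue) in togr1-1 at both temperatures. Chromosome 4 has the tallest bar of each colour, at 1.20% and 1.73%, and chromosome 7 has no red bar.

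On chromosome 4 the members were concentrated in 1 stretch. Between LOC_Os04g10650 and LOC_Os04g30260 lay 191 loci with the minimum of reads, the 102nd to the 292nd of the 1331 of the chromosome, and 13 of them (6.81%) were members, against 3 of the other 1140 loci of the chromosome (0.263%) and 65 of the 15070 loci outside the stretch (0.431%). In the same stretch 18 loci (9.42%) were at least 2-fold higher in togr1-1 at both temperatures, against 0.703% outside it. The stretch was set by the outermost of these members after their positions had been seen, so the shares are a description and were not tested. The median log2 ratio of all 191 loci was 0.11 at 25 °C and -0.02 at 30 °C, so the stretch as a whole was little shifted, and individual loci stood far off on either side.

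The deficits were also deeper there. The 13 members of the stretch had a median ratio of 0.138 at 25 °C and 0.116 at 30 °C, against 0.346 and 0.381 for the 65 members elsewhere. These ratios chose the members, and the ends of the stretch were set by members. The difference in depth is therefore a description and was not tested. Of the 16 members with both ratios at most 0.25 the stretch held 9, and of the 8 with both at most 0.1 it held 5, including the 3 loci with no reads in togr1-1. In the wild type 1 of the 13 changed at least 2-fold with temperature (LOC_Os04g29990, with 129 and 50 reads in the wild type and 7 and 5 in togr1-1), compared with 30 of the 65 elsewhere. Over all loci 6.19% were at least 2-fold higher and 5.97% at least 2-fold lower, so the 13 were not unusual in this. In togr1-1 LOC_Os04g29680 and LOC_Os04g17700 changed at least 2-fold, as given above, and LOC_Os04g29990 had too few reads there. The other members of the stretch were LOC_Os04g12140 (164 and 228 reads in the wild type, 36 and 42 in togr1-1), LOC_Os04g23700 (192 and 177 against 39 and 27), LOC_Os04g22120 (419 and 300 against 91 and 104), LOC_Os04g20960 (180 and 251 against 72 and 103) and LOC_Os04g21660 (105 and 94 against 45 and 46). For each of these 5 both togr1-1 libraries lay below both wild-type libraries.

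**Figure D5:**
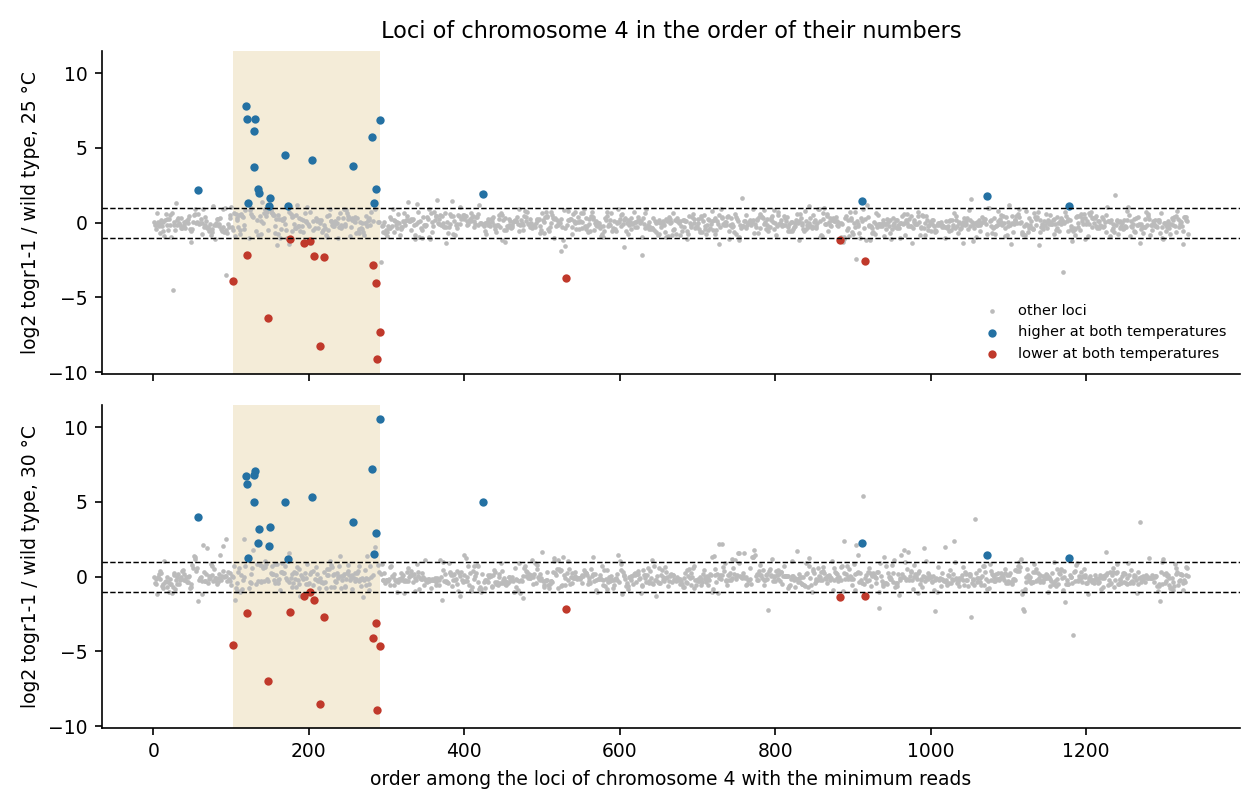
Loci of chromosome 4 with the minimum of reads are plotted in the order of their numbers (x axis) against the log2 ratio of togr1-1 to wild type at 25 °C (top) and 30 °C (bottom), with dashed lines at 2-fold. The shaded stretch from the 102nd to the 292nd locus holds 13 of the 16 loci lower at both temperatures (red) and 18 of the 23 higher at both (blue).

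Around TOGR1 on chromosome 3, within 50 loci with the minimum of reads on either side, 2 of 101 loci were members (1.98%) and 4 were higher in togr1-1 at both temperatures (3.96%). Over all 15261 loci these shares were 0.511% and 0.813%. LOC_Os03g46310 lay 13 loci before TOGR1 and had 146 and 102 reads in the wild type and 68 and 50 in togr1-1, ratios of 0.464 (0.297 to 0.700) and 0.488 (0.287 to 0.794). Its ratio at 30 °C was 0.503 with TMM factors and 0.506 with a pseudocount of 5 reads, past the limit of 0.5, so that under either choice 1 of these loci was a member. LOC_Os03g47034 lay 13 loci beyond it and had 168 and 170 reads against 56 and 40, ratios of 0.333 (0.207 to 0.510) and 0.236 (0.135 to 0.381). Of the 4 higher loci, LOC_Os03g47640 lay 23 loci beyond TOGR1 and had 4 and 2 reads in the wild type but 82 and 88 in togr1-1. LOC_Os03g47650 (209 and 172 against 484 and 638) and LOC_Os03g47670 (82 and 156 against 329 and 568) lay 24 and 25 loci beyond it. LOC_Os03g45970 (16 and 18 against 60 and 56) lay 19 loci before it. With so few loci these shares rest on single loci.

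Adjacent members were rare elsewhere. LOC_Os01g55100 (100 and 138 wild-type reads against 35 and 46) and LOC_Os01g55160 (64 and 56 against 4 and 15) were the one pair that followed each other directly among the loci with the minimum of reads. Within chromosome 4, LOC_Os04g29680, LOC_Os04g29990 and LOC_Os04g30160 stood 3 and 2 loci apart.

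Members had reads on several transcript models less often than all loci. A model is counted only where it carries reads, and members had few of them. Their median was 367.5 reads over the 2 wild-type libraries, against 468 over all loci, and 91.5 over the 2 togr1-1 libraries. A difference in models was not told apart from this difference in reads. A single model carried reads in 70 of the 78 members (89.7%), against 11844 of the 15261 loci (77.6%), and the model with the most reads had a median length of 1436.5 bases in members and 1795 bases over all loci. Where several models carried reads, in 8 members with 22 models, the deficit was mostly but not always common to them. In LOC_Os05g03480 the model LOC_Os05g03480.2 had 38 and 86 reads in the wild type and 8 and 26 in togr1-1, whereas LOC_Os05g03480.4 had 2 and 21 reads against 8 and 24 and so was not lower in togr1-1. At 30 °C LOC_Os10g42610.1 had 63 wild-type and 39 togr1-1 reads, and LOC_Os10g42610.2 had 34 and 2. How the counting shared reads between models, near-identical copies and genes that overlap on either strand is not given in the sources used here, and the counts of single models are uncertain.

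By Pearson's correlation of log2 reads over the 4 libraries, the 5 of 13526 other loci with at least 200 reads most like the median member (LOC_Os02g52430, LOC_Os11g40200, LOC_Os03g08700, LOC_Os12g33020 and LOC_Os08g01300) reached r of 0.999 or more, but with ratios of togr1-1 to wild type of 0.572 to 0.901. With 4 points that share their libraries, likeness of this kind is a description and does not speak of size.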

How the data were processed

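RNA from 4 leaf pools, 1 per genotype and temperature, had been sequenced by the study. The authors deposited raw read counts per transcript model and RPKM values. The aligner, genome build and annotation release are not given in the sources used here. The deposited columns with the authors' log2 ratio, p-value and FDR for the temperatures were not used. Counts were summed by locus, a locus absent from a file was given 0 reads, and ratios used a pseudocount of 1 read and total reads as library size. The members and lists were chosen with earlier results of these data known, and the loci named in the text follow a rule on reads, ratios, temperature response and position (10 most abundant, 10 lowest ratios, at most 3 reads in togr1-1, 2-fold with temperature in both genotypes, 5 largest differences between ratios, neighbours, near TOGR1, next to the limit), to which members of the chromosome 4 stretch, those that changed with temperature in 1 genotype and those with several models were added after their values were seen. With 1 library per condition no test could estimate the spread between pools, and tests were run as alternatives alone. Intervals are 95% Clopper-Pearson intervals with 2 reads as 1 fragment and cover counting error only, and 3 fragments (6 reads) are the most that a count of 0 allows. Folds for counts of 0 take the wild-type count as exact. Calculations were tested on simulated reads that had counting error alone, without spread between pools and without reads in pairs. That check covers the calculations and does not speak of spread in these data. Alternatives were TMM and DESeq2 scaling, another pseudocount, other limits on reads and ratios, single models, an exact binomial test and edgeR's exact test with an assumed spread. No sequences are shown, as none of these loci were in the reference used. Versions were Python 3.11.15, numpy 2.4.6, pandas 2.3.3, scipy 1.17.1, matplotlib 3.10.9, R 4.3.3, edgeR 4.0.16 and DESeq2 1.42.0.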

Additional observations from a re-analysis of the deposited data

Results flagged for a closer look

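In LOC_Os11g05470 the reads moved in opposite directions with temperature in the genotypes. They were 106 at 25 °C and 60 at 30 °C in the wild type, a ratio of 0.582 (95% interval 0.357 to 0.922), and 10 and 29 in togr1-1, a ratio of 2.78 (1.01 to 10.4). The ratio in togr1-1 was 4.77 times that in the wild type. The difference was not tested, it rests on 10 reads in 1 library, and it equals the difference between the genotype ratios that chose the locus (0.102 at 25 °C and 0.485 at 30 °C).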

How the results depend on the processing

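The number of members followed the limits of the rule more than the scaling or the pseudocount. With TMM factors 72 of the 78 loci were kept, with DESeq2 size factors 71 and with a pseudocount of 5 reads 67, and no other locus was added. It rose to 816 with no minimum on reads, and fell to 35 with at least 200 reads, to 16 with a ratio of at most 0.25, to 34 when both togr1-1 libraries had to be at most 0.5 of both wild-type libraries, and to 30 in edgeR's exact test with an assumed coefficient of variation of 0.2 at an adjusted p of at most 0.05, a count that rests on that assumed spread and not on replicates. In an exact binomial test on the reads 66 members passed an adjusted p of 0.001 at both temperatures, a comparison of libraries and not of conditions. The binomial and edgeR counts use the reads that chose the members, so passing is no separate support for the deficits. The numbers of members changed by temperature stayed within 1.5 times of those given under the alternatives tried, except that 2 in place of 6 were lower at 30 °C in togr1-1 with at least 200 reads. In the wild type the members higher and lower at 30 °C were 22 and 8 with TMM factors and 22 and 9 with DESeq2 size factors, where 4.97% of all loci were higher and 6.92% lower with the first and 4.91% and 7.01% with the second. Without the members on chromosome 4, an alternative chosen after seeing the data, 23 of 62 members were higher at 30 °C in the wild type and 18 of 47 in togr1-1. No ratio of a locus named by the rule left its counting interval with TMM factors or a pseudocount of 5 reads (164 ratios under each). No paired analysis was possible because each condition has 1 library. With 1 pool per condition the spread between pools is unknown. The counting interval ended at or below the limit of 0.5 at both temperatures in 28 of the 78 members, a description of the ratios that chose them.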
